A study of Homo sapiens with 24 samples.

Results

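The genes described here lie on the distal long arm of human chromosome 8, in band 8q24 and just before it, on both sides of the oncogene MYC. Members are all symbols whose entries in the 3 genome-wide comparison tables lie between chr8:117000000 and chr8:146300000 (GRCh37). Left out were 6 symbols by the rule (NDRG1, SQLE, CYC1, RPL8, MRPL13 and AGO2) and 1 entry that crosses a limit. The 264 members, of 27427 symbols in the tables, hold 690 entries, 1 per RefSeq accession. Their levels are given as FPKM (fragments counted per kilobase of transcript and scaled to the mapped fragments of a library), summed over the accessions of a symbol. In at least 1 of 6 groups 160 members reached 1 FPKM, while 104 stayed under it, 51 of them at 0 everywhere. Protein-coding genes make up 162 members, and 34 are microRNAs or small nucleolar RNAs.

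The study knocked down TFAP2C, which encodes the transcription factor AP-2gamma, in HER2-positive breast carcinoma cell lines and sequenced their messenger RNA in 3 samples per group. In SKBR3 and in HCC1954, a transient siRNA against TFAP2C was set against a non-targeting siRNA, with cells taken 72 to 96 h after lipofection. In HCC1954, clones stably carrying a lentiviral shRNA against TFAP2C were also set against clones with a non-targeting shRNA. Another line, HCC1569, received the same siRNAs, and only its table of 68 selected entries was used here. The submitters state that they did not authenticate the lines, the stable cells are clones of unstated number, and nothing says whether the 3 samples of a group were separate cultures. The deposited p-values thus rest on the spread among these samples alone, and that spread may be technical. Each group has 1 pooled FPKM per entry, with no value per sample, so no SD can be given and depth per sample is unknown.

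MYC encodes a transcription factor that pairs with MAX, binds E-box DNA and drives genes of ribosome making, nucleotide synthesis and the cell cycle. Noncoding genes such as PVT1, CCAT1, PCAT2, PRNCR1, CASC8 and CASC19 lie around it, in a stretch that holds enhancers of MYC. Distal 8q is among the segments most often gained in breast cancer, and a gain carries many neighbours of MYC along with it. Levels of RNA alone do not give the copy number of a segment.

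TFAP2C itself was lower in every knockdown group, at 53.9 against 157 FPKM in SKBR3, 22.0 against 92.4 with siRNA in HCC1954 and 3.46 against 81.0 with shRNA (q of 0.000441, 0.00425 and 0.000121 in the authors' deposited tables). The group labelled HCC1954 TFAP2C shRNA stood apart from the other HCC1954 groups in more than TFAP2C. Across 15062 symbols its levels had a Spearman correlation of 0.784 with its own control, against 0.950 and 0.971 for the siRNA pairs in HCC1954 and SKBR3, and of 0.659 with the HCC1954 siRNA control and 0.750 with the SKBR3 control. The shRNA control itself had correlations of 0.818 with the HCC1954 siRNA control and 0.803 with the SKBR3 control. The SKBR3 and HCC1954 siRNA controls had 0.723 with each other. ERBB2, the HER2 gene, stood at 20.8 FPKM in the group labelled TFAP2C shRNA against 1525 in its control, and at 609 to 4676 in the other groups. The neighbours of ERBB2 on chromosome 17 were as low, with 10.1 against 499 FPKM for STARD3, 5.84 against 372 for PGAP3, 26.2 against 991 for MIEN1 and 7.08 against 450 for GRB7. These levels go against the label of a HER2-positive line. Whether both shRNA groups are the same cells apart from the shRNA was not tested, and every shRNA result below compares the groups as labelled. The siRNA comparisons, which hold no such group, are given beside them. Summed levels of the marker genes were 1949 to 7347 FPKM for 6 epithelial and HER2 genes (CDH1 was at 0.0894 and 0.0970 FPKM in the SKBR3 groups), 0.340 to 1.96 for 6 fibroblast genes, 4.73 to 38.8 for 5 leukocyte genes, mostly CD68, and 0.164 to 27.5 for 4 endothelial genes. PECAM1 made up most of the last in HCC1954 (27.0 FPKM in the siRNA control) and was at 0.0180 FPKM in the group labelled TFAP2C shRNA.

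MYC was measured in all 6 groups. Its FPKM was 81.1 in the SKBR3 control and 76.2 after siRNA, 34.5 in the HCC1954 siRNA control and 47.1 after siRNA, and 33.7 in the HCC1954 shRNA control and 96.3 in the group labelled TFAP2C shRNA. The SKBR3 groups were thus above every HCC1954 group but the last, which was the highest of the 6. The log2 ratio of these summed levels was -0.09 in SKBR3, 0.45 with siRNA in HCC1954 and 1.52, a 2.86-fold rise, in the shRNA comparison. In the authors' deposited tables the most highly expressed MYC accession, on which the call rests, had q = 0.472, 0.805 and 0.000121, with a log2 ratio of -0.09, 0.36 and 1.52. Members are called where the deposited q of the symbol's most highly expressed accession is under 0.05, and a ratio is that of the summed FPKM of knockdown over control. The change of MYC was not shown to differ between comparisons. For that accession the siRNA change in SKBR3 minus that in HCC1954 was -0.45 on the log2 scale with a standard error of 0.94 (z test on the authors' deposited statistics, adjusted p = 1), and the siRNA minus the shRNA change in HCC1954 was -1.15 with a standard error of 0.93 (adjusted p = 0.554). MYC lies on the plus strand at chr8:128747680-128755197 (GRCh37, GENCODE).

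PVT1, a long noncoding RNA gene that begins just after MYC (chr8:128806772-129199347, plus strand), had another order of levels. It stood at 4.10 and 4.28 FPKM in SKBR3, 9.73 and 9.64 in the HCC1954 siRNA groups, and 9.95 and 23.5 in the shRNA groups. The line with more MYC in its siRNA control thus had less PVT1, and PVT1 rose beside MYC in the shRNA comparison, 2.37-fold (q = 0.000121 in the authors' deposited table). PRNCR1, a noncoding RNA gene before MYC, rose there too, from 4.12 to 6.88 FPKM (q = 0.000121 in the authors' deposited table). CCAT1 and PCAT2, noncoding RNA genes of the enhancer stretch, were found in HCC1954 and hardly in SKBR3. CCAT1 was listed at 0 in the SKBR3 control and stood at 0.523 and 2.63 FPKM in the HCC1954 siRNA and shRNA controls. PCAT2 was listed at 0 in both SKBR3 groups and in the group labelled TFAP2C shRNA, and at 2.51 and 4.52 FPKM in the HCC1954 siRNA and shRNA controls. Of 12 genes listed beside MYC, 3 were tested in the shRNA comparison and all 3 (MYC, PVT1 and PRNCR1) rose, beside 36.3% of all symbols tested in that table. None of 3 tested in SKBR3 and none of 2 tested with siRNA in HCC1954 was called. CASC8, between PRNCR1 and MYC, was not tested and stood at 3.74 FPKM in the shRNA control and 1.62 in the group labelled TFAP2C shRNA.

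GSDMC, which encodes a pore-forming gasdermin, is the first protein-coding gene measured after MYC (chr8:130760442-130798870, minus strand), and its level differed widely between groups. It stood at 0.546 FPKM in the SKBR3 control and 3.37 after siRNA, a 6.17-fold rise (q = 0.000441 in the authors' deposited table). In HCC1954 it was at 23.0 and 27.3 FPKM in the siRNA groups (q = 0.579 in the authors' deposited table), and at 15.1 and 0.0163 FPKM in the shRNA groups, where it fell (q = 0.000121 in the authors' deposited table). CYRIB and ASAP1, regulators of the actin cytoskeleton on the far side of GSDMC, were not called in any comparison. ASAP1 kept to 8.28 to 14.0 FPKM. The summed level of CYRIB was higher in each knockdown group, at 21.5 against 13.7 FPKM in SKBR3, 24.1 against 17.5 with siRNA in HCC1954 and 37.4 against 22.6 with shRNA. Its call rests on an entry at 5.04, 2.10 and 6.41 FPKM in those controls. In the shRNA comparison MYC, PVT1 and PRNCR1 thus rose while GSDMC, 2.01 Mb beyond MYC, fell.

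**Figure D1:**
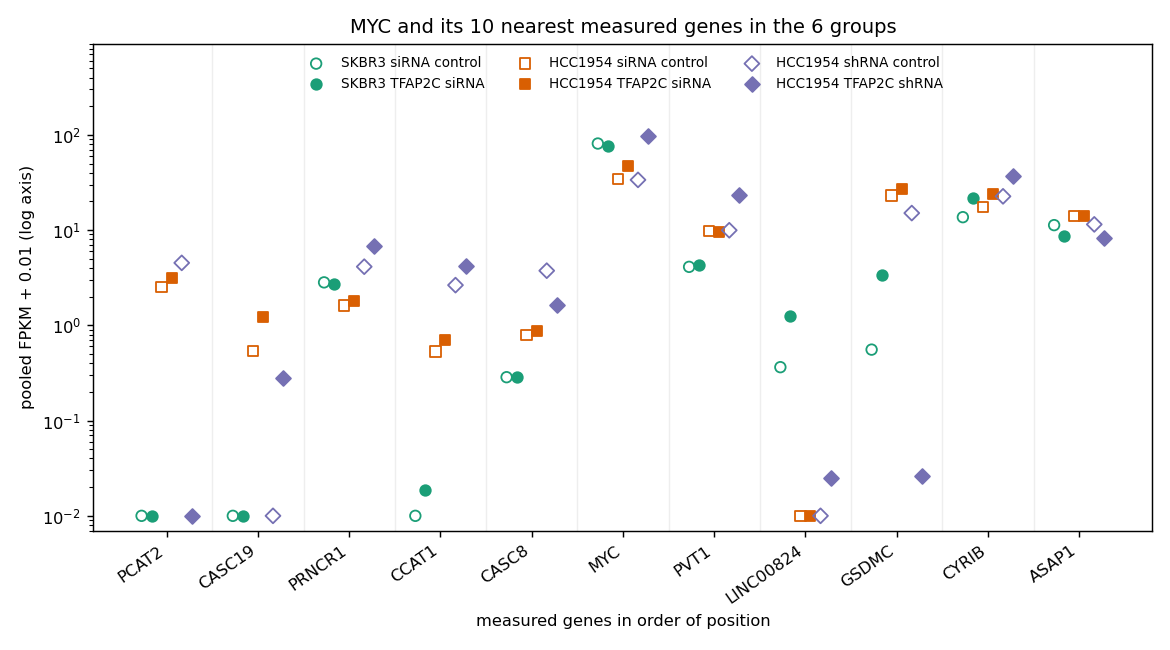
Pooled FPKM plus 0.01 (log axis) of MYC and the 5 measured genes on either side, in order of position. Open symbols are controls and filled symbols TFAP2C knockdown groups, with circles for SKBR3, squares for HCC1954 siRNA and diamonds for HCC1954 shRNA. MYC is highest in the group labelled TFAP2C shRNA (96.3 FPKM), where GSDMC is lowest (0.0163 FPKM).

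Levels of the controls were compared between lines as log2(FPKM + 0.1), minus the median over all symbols at 1 FPKM or more in either group. The tables were normalized separately, so these are values without a test. Set against the HCC1954 siRNA control, SKBR3 was higher in the stretch before MYC, with a median of 0.89 over 43 members, of which 19 were at least 2-fold higher and 8 at least 2-fold lower. Against the HCC1954 shRNA control the same stretch had a median of 0.17 over 48 members, with 11 and 13 such genes. The 2 HCC1954 controls themselves differed there by a median of 0.72 (shRNA over siRNA, 47 members), so the height of the SKBR3 values depended on the control chosen. In the stretch from MYC to chr8:140000000 the medians were -0.66 and -0.58 over 9 members each, and beyond it 0.36 over 88 and 0.29 over 83. Over the rest of chromosome 8 they were 0.00 and -0.35, and the median of the HCC1954 shRNA over siRNA control was 0.40 over 300 symbols.

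Along the region, the median of 11 neighbouring members ran unevenly. In SKBR3 over the HCC1954 siRNA control it was highest around DERL1, 4.72 Mb before MYC, at 2.07, and lowest around JRK, 15.0 Mb after it, at -1.37. With the shRNA control it was highest around DSCC1, 7.9 Mb before MYC, at 1.25, and lowest around PRNCR1, at -2.32. The highest point thus lay several Mb before MYC with either control. Around RECQL4, 16.99 Mb after MYC, the running median was above 0 as well, at 1.30 and 0.89. MYC lay apart from its neighbours, at 1.36 and 1.42, while PVT1 stood at -1.10 and -1.11. Of 9 members between MYC and chr8:140000000 with both values, MYC was the one at least 2-fold higher in SKBR3 against both HCC1954 controls, and PVT1, GSDMC and EFR3A, which anchors a lipid kinase at the plasma membrane, were at least 2-fold lower.

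At least 2-fold higher in SKBR3 against both HCC1954 controls were 22 of 131 members (16.8%) and at least 2-fold lower 13 (9.92%), beside 13.2% and 12.6% of 12862 symbols. MAL2, a membrane protein of transcytosis, stood at 1495 FPKM in the SKBR3 control against 263 and 91.6 in the HCC1954 siRNA and shRNA controls. NDUFB9, a subunit of respiratory complex I, was at 1305 against 140 and 235 FPKM. SNTB1, a syntrophin that links membranes to dystrophin, was at 16.3 FPKM against 0.394 and 0.454. The most abundant members of SKBR3 and a gene nearly absent from the HCC1954 controls thus sat in the same stretch before MYC. Others of the 22 were COLEC10, a secreted lectin (8.76 against 0.209 and 0.107 FPKM), DERL1, which exports misfolded proteins from the endoplasmic reticulum (317 against 82.3 and 117), and C8orf76 (209 against 50.0 and 41.8), whose reads may be shared with the readthrough gene ZHX1-C8orf76. Beyond chr8:140000000, MROH6 stood at 41.6 FPKM in the SKBR3 control against 2.57 and 2.23, and EPPK1, an epidermal plakin, at 22.1 against 0.980 and 4.01.

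Lower in SKBR3 was EXT1, an enzyme that polymerizes heparan sulfate, at 6.73 FPKM against 115 and 200 in the HCC1954 controls. TRIB1, a pseudokinase that directs protein degradation, was at 22.7 against 67.2 and 99.3 FPKM. EFR3A was at 6.12 against 42.3 and 62.8, PTP4A3, a phosphatase, at 0.313 against 4.06 and 2.60, and LY6K, a surface protein, at 1.45 against 19.2 and 57.8. These genes were thus well below both HCC1954 controls, whichever was used. By control level EIF3H, a subunit of translation initiation factor 3, was among the top 5 members in each table, at 831, 692 and 718 FPKM, and so was LY6E, at 409, 911 and 437.

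**Figure D2:**
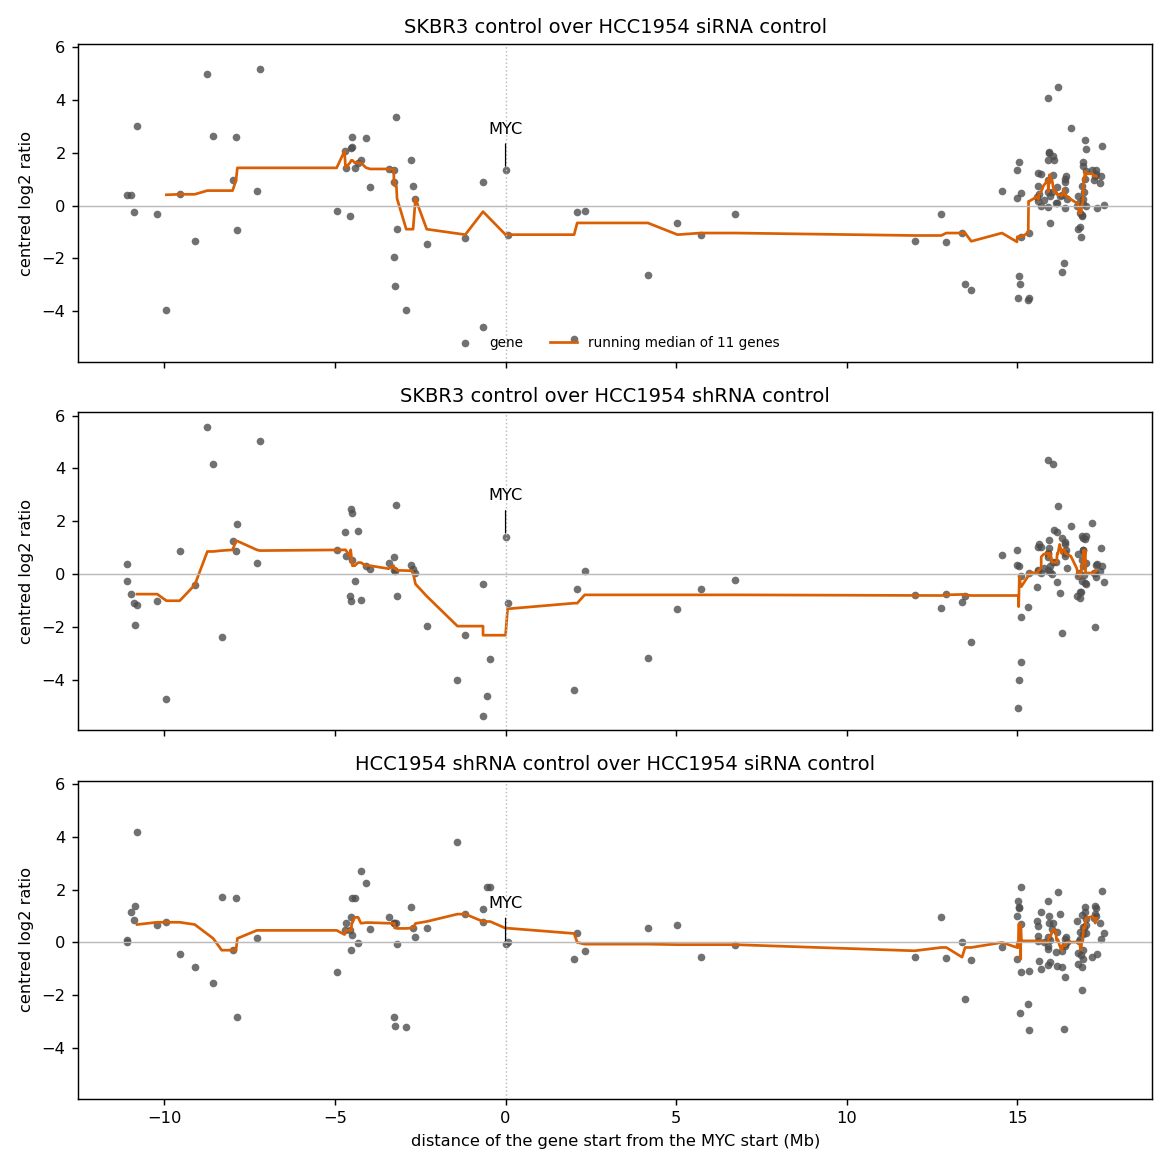
Centred log2 ratio of control levels (FPKM + 0.1) for each gene by distance of its start from the MYC start in Mb, microRNAs and small nucleolar RNAs not drawn. The line is the median of 11 neighbouring genes. SKBR3 exceeds both HCC1954 controls in the running median several Mb before MYC and again near 17 Mb after it, and MYC (1.36 and 1.42) stands above its neighbours.

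With TFAP2C siRNA in SKBR3, the called genes before MYC mostly rose and those beyond chr8:140000000 nearly all fell. Of 109 tested members 10 rose (9.17%) and 20 fell (18.3%), beside 12.3% and 21.0% of 9901 symbols tested in that table, 33.3% in either direction. Before MYC 8 rose and 5 fell of 38 tested (21.1% and 13.2%), and between MYC and chr8:140000000 1 rose of 6. Beyond it 1 rose and 15 fell of 65 (1.54% and 23.1%). Over the rest of chromosome 8 18.6% rose and 13.6% fell, near the shares before MYC. The share that fell beyond chr8:140000000 was near that of all symbols, and the share that rose there was under it. The median log2 ratio was -0.07 over the whole region and 0.07, -0.03 and -0.13 over the 3 stretches, beside -0.08 over all symbols. The shares over the whole region were thus a little under those of all symbols, and a median of -0.07 becomes 0.01 once the median of all symbols is taken off.

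The genes that rose in SKBR3 were led by FAM83A, linked to signalling of EGF receptors, which went from 10.0 to 74.4 FPKM (7.42-fold). FBXO32, the F-box protein atrogin-1 that selects proteins for ubiquitination, went from 17.4 to 49.5 FPKM (2.84-fold). KLHL38 rose from 3.12 to 8.46 FPKM, with q = 0.000441 for all 3 genes in the authors' deposited table. The 3 genes lie 4.56, 4.24 and 4.09 Mb before MYC. Smaller rises were those of TRIB1 (22.7 to 46.4 FPKM), TMEM65, a protein of the inner mitochondrial membrane (55.2 to 92.3), DEPTOR, an inhibitor of mTOR (5.48 to 8.75), EXT1 (6.73 to 9.80) and LRATD2 (22.5 to 30.2). C8orf33, the last gene inside the limits, rose from 41.4 to 51.5 FPKM.

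Among the genes that fell in SKBR3, AARD went from 6.61 to 3.32 FPKM, and GPAA1, a subunit of the enzyme that attaches GPI anchors, from 75.2 to 39.2 FPKM (1.92-fold lower). DSCC1, of a clamp loader for sister chromatid cohesion, fell from 59.3 to 39.1 FPKM, TONSL, which acts at stalled forks, from 7.31 to 4.40, and RECQL4, a helicase, from 14.4 to 9.77 (q = 0.000441 each in the authors' deposited table). Of 9 listed replication and repair genes, all tested, these 3 fell and none rose, with a median log2 ratio of -0.23, beside 21.0% falls and a median of -0.08 over all symbols. Of 7 translation and ribosome genes, 2 fell (BOP1, of rRNA processing, from 14.4 to 10.8 FPKM, and HGH1 from 18.3 to 13.9) and none rose, beside the same 21.0%. Of the 9, 4 rose and 3 fell with shRNA, and of the 7, 2 rose and 4 fell, beside 36.3% and 39.2% of all symbols. With siRNA in HCC1954 no gene of either list was called. ZHX2, a zinc finger and homeobox repressor, fell from 33.7 to 18.7 FPKM, NDUFB9 from 1305 to 937, and PUF60, a splicing factor, from 61.4 to 52.5.

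In HCC1954 few genes were called with siRNA, and nearly all of them rose. Of 113 tested members 9 rose (7.96%) and 1 fell (0.885%), beside 2.31% and 0.966% of 10771 symbols tested, 3.28% in either direction. The rises stood both before MYC (3 of 36 tested) and beyond chr8:140000000 (6 of 68), with none of 9 in between. The median log2 ratio of the region was 0.12 over 126 members, 85 of them above and 41 below no change, beside -0.01 over all symbols. The share of members that rose was thus above that of all symbols, and most members that were not called also had ratios a little above 1.

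FAM83A led here too, from 14.4 to 32.3 FPKM (2.25-fold), followed by PSCA, a GPI-anchored surface protein, from 9.40 to 19.5 (2.08-fold), both with q = 0.00425 in the authors' deposited table. GLI4, a zinc finger gene, rose from 3.83 to 6.71 FPKM, FBXO32 from 5.71 to 9.54, MROH6 from 2.57 to 4.18 and SCRIB, a scaffold of cell polarity, from 20.5 to 32.1. TMEM65 rose from 22.9 to 34.5 FPKM, SLC39A4, the zinc importer ZIP4, from 41.0 to 60.2, and PLEC, the linker protein plectin, from 22.4 to 31.0. Of these genes FAM83A, FBXO32 and TMEM65 had also risen in SKBR3, while MROH6 had fallen there. The gene that fell was LYNX1, a modulator of nicotinic receptors, from 9.04 to 5.58 FPKM (q = 0.0194 in the authors' deposited table), a symbol whose transcripts overlap those of SLURP2.

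In the shRNA comparison most tested genes before MYC fell, and most of those beyond chr8:140000000 rose. Before MYC 3 members rose and 22 fell of 30 tested, that is 10.0% and 73.3%, beside 36.3% and 39.2% of 9562 symbols tested, 75.4% in either direction. Beyond chr8:140000000 the order was turned, with 41 up and 14 down of 69 tested (59.4% and 20.3%). Between them 3 rose (MYC, PVT1 and KHDRBS3) and 3 fell of 9. The median log2 ratio was -0.99 before MYC, -0.52 in between and 0.56 beyond chr8:140000000, beside 0.00 over all symbols and -0.11 over the rest of chromosome 8. Over the whole region 47 rose (43.5%) and 39 fell (36.1%) of 108, with a median of 0.27, which describes none of the 3 stretches.

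The running median of 11 members was lowest around SAMD12, 9.55 Mb before MYC, at -1.45, and highest around RHPN1-AS1, 15.7 Mb after it, at 0.89. The group labelled TFAP2C shRNA had the lowest level of the 6 groups for 29 of 53 members before MYC that reached 1 FPKM (54.7%, beside 23.9% of all symbols). Beyond chr8:140000000 it had the highest for 43 of 95 (45.3%, beside 27.8%). Low levels before MYC in that group were thus low against the SKBR3 and HCC1954 siRNA groups too, and not against its own control alone.

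**Figure D3:**
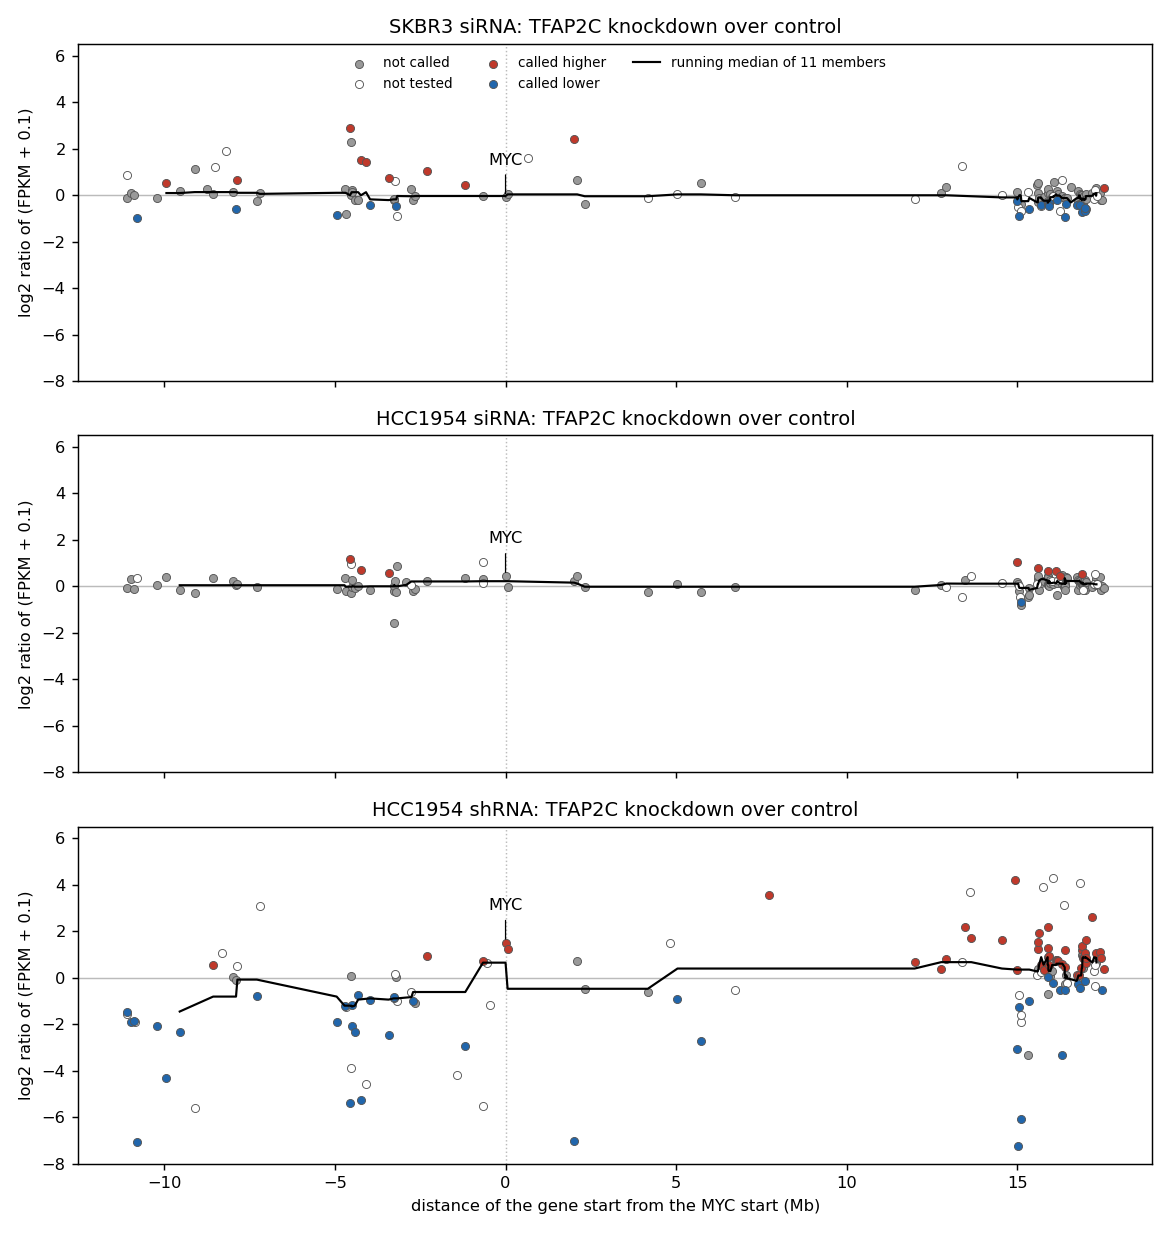
Log2 ratio of knockdown over control (FPKM + 0.1) for members at 1 FPKM or more in either group, by distance of the gene start from the MYC start in Mb, microRNAs and small nucleolar RNAs not drawn. Red and blue points are called higher and lower, grey points tested and not called, open points not tested, and the line is the median of 11 members at 1 FPKM or more in both groups. The running medians of the siRNA panels stay near 0, with single genes such as FAM83A well above it. The shRNA panel is mostly below 0 before MYC and above it beyond 12 Mb.

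Before MYC the falls in the shRNA comparison took in genes of quite different work. EIF3H, the first gene inside the limits, fell from 718 to 263 FPKM (2.73-fold), RAD21, the kleisin subunit of cohesin, from 734 to 205 (3.59-fold), and UTP23, of small ribosomal subunit assembly, from 83.9 to 22.5. MED30, a Mediator subunit, fell from 72.6 to 17.1 FPKM, EXT1 from 200 to 9.87 (20.2-fold) and SAMD12 from 27.9 to 5.49. Nearer MYC, ATAD2, a chromatin ATPase with a bromodomain, fell from 184 to 37.1 FPKM (4.97-fold), DERL1 from 117 to 49.7 and LRATD2 from 125 to 16.5. With siRNA none of these 9 genes fell in SKBR3 or HCC1954, and EXT1 and LRATD2 rose in SKBR3. Other genes before MYC fell in both SKBR3 and the shRNA comparison. Among them were ZHX2 (33.7 to 18.7 and 19.8 to 5.25 FPKM), FAM91A1 (45.8 to 34.2 and 44.3 to 23.2) and AARD, by its entry (6.61 to 3.32 and 16.7 to 0.0245). FAM83A, FBXO32 and TMEM65 rose in SKBR3 and fell with shRNA. TRPS1, a GATA-type repressor gene just outside the limit, was at 13.8 FPKM in the shRNA control and listed at 0 in the group labelled TFAP2C shRNA (q = 0.000121 in the authors' deposited table). The 3 members before MYC that rose were MAL2 (91.6 to 133 FPKM), TRIB1 (99.3 to 190) and PRNCR1.

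Beyond chr8:140000000 the rises among genes at 1 FPKM or more in both groups were led by ZNF251, a zinc finger gene, from 1.72 to 10.9 FPKM (6.34-fold), SLC45A4, a membrane transporter, from 1.23 to 5.90, and MROH6, from 2.23 to 10.4. TOP1MT, the mitochondrial topoisomerase, rose from 4.24 to 16.6 FPKM, PTP4A3 from 2.60 to 8.74, TSNARE1 from 2.07 to 6.56, C8orf82 from 4.98 to 15.4 and ZNF696 from 2.54 to 7.59. TONSL rose from 9.79 to 25.6 FPKM and RECQL4 from 20.1 to 41.8, both genes that had fallen in SKBR3. ARC, a gene of neuronal synapses, was under that level in its control and rose from 0.232 to 6.05 FPKM. Beside 36.3% of all symbols and 59.4% of tested members beyond chr8:140000000, all 4 listed genes of RNA processing rose. They were PUF60 (85.3 to 143 FPKM), CPSF1, of cleavage and polyadenylation (12.5 to 16.8), ZC3H3 (9.72 to 12.3) and, before chr8:140000000, KHDRBS3 (0.377 to 5.61). PTK2, the focal adhesion kinase, rose from 25.1 to 44.0 FPKM, and EXOSC4, of the RNA exosome, from 26.5 to 60.6. C8orf33 rose from 57.2 to 74.9 FPKM at the far end.

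A cluster of surface protein genes near 15 Mb held 5 of the 14 falls beyond chr8:140000000. Of 11 listed genes of the LY6 cluster, 5 were tested in the shRNA comparison and all 5 fell, beside 39.2% of all symbols that fell and 75.4% called in either direction. LY6K went from 57.8 to 0.281 FPKM, LY6D from 11.2 to 0.0676, PSCA from 6.18 to 0.643 and LY6E from 437 to 222. The fifth, THEM6, lies among them without belonging to the LY6 family by its protein, and fell from 63.8 to 27.0 FPKM. In SKBR3 2 of 4 tested fell (LY6E, 409 to 267 FPKM, and THEM6, 70.2 to 37.3), beside 21.0% of all symbols. With siRNA in HCC1954 1 of 6 rose (PSCA) and 1 fell (LYNX1), beside 2.31% and 0.966%. LY6 genes are similar in sequence, and the sources used here do not say how reads shared by similar genes were counted. EEF1D is the one member whose called entry and summed level differ in direction: its entry fell in the shRNA comparison (q = 0.000237 in the authors' deposited table), while its summed level was 99.3 and 102 FPKM.

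**Figure D4:**
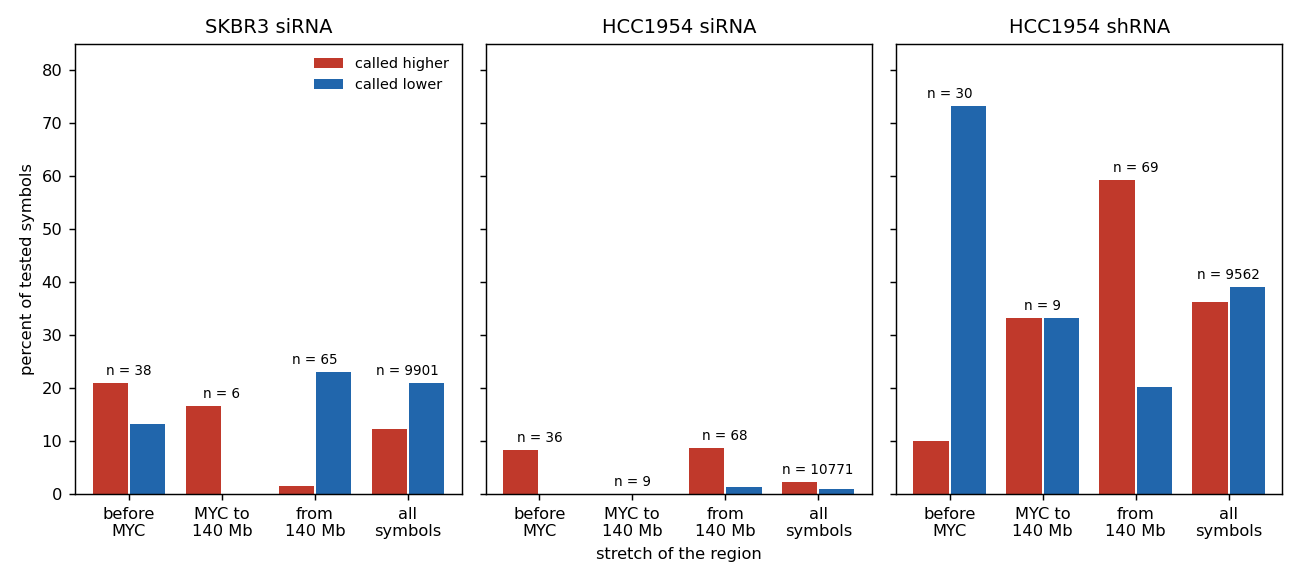
Percent of tested symbols called higher (red) or lower (blue) in the authors' deposited tables, by stretch of the region and over all symbols, with the number tested above each pair of bars. Before MYC 73.3% fell in the shRNA comparison, against 39.2% of all symbols, and beyond chr8:140000000 59.4% rose, against 36.3%.

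Called in all 3 genome-wide comparisons were 4 members, none of them in 1 direction throughout. FAM83A (chr8:124191200-124222319, plus strand) rose with siRNA in both lines and fell from 20.2 to 0.393 FPKM in the shRNA comparison (51.4-fold lower). FBXO32 rose with siRNA in both lines and fell from 38.5 to 0.898 FPKM with shRNA (42.9-fold lower), and TMEM65 likewise fell, from 45.4 to 8.23 (5.52-fold lower). MROH6 fell in SKBR3, from 41.6 to 31.7 FPKM, and rose in both HCC1954 comparisons. The antisense gene FAM83A-AS1 followed FAM83A in its levels, at 0.552 and 3.11 FPKM in SKBR3, 0.643 and 1.35 with siRNA in HCC1954, and 1.39 and listed at 0 in the shRNA groups. No source used here says that counting used the strand, so reads of the 2 genes cannot be told apart. In the HCC1569 table of selected entries 2 members were present, and both were higher after siRNA in the authors' deposited table: MROH6 at 15.1 against 1.88 FPKM and SLC39A4 at 203 against 52.7 (q = 0.000284 each).

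The difference between comparisons was tested directly with a z test on log2 ratios, adjusted over all symbols. Between the siRNA comparisons in SKBR3 and HCC1954 1 of 95 members differed (beside 0.505% of 8905 symbols). That gene was FAM83A, whose rise was larger in SKBR3 by 1.80 on the log2 scale (z test on the authors' deposited statistics, adjusted p = 0.00139). GPAA1 and MROH6, called in SKBR3 in the other direction than their ratio in HCC1954, did not pass (differences of -1.02 and -1.09, adjusted p = 0.307 and 1 from the authors' deposited statistics). Between siRNA and shRNA in HCC1954 17 of 99 members differed, beside 13.8% of 8632 symbols. In 13 the siRNA ratio was the higher, and these lie before MYC except ST3GAL1, a sialyltransferase gene between MYC and chr8:140000000. In 4 the shRNA ratio was the higher, and all 4 (ZNF251, SLC45A4, RECQL4 and TONSL) lie beyond chr8:140000000. Some genes that fell to near 0 FPKM with shRNA did not pass despite large differences. These were 10.1 for GSDMC, 9.6 for LY6K and 6.55 for LY6D (adjusted p = 0.830, 0.425 and 0.876 from the authors' deposited statistics). The 17 members thus leave out some of the largest differences.

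Partners and known targets of MYC elsewhere in the genome show what moved beside MYC. Of 12 genes of the MYC and MAX network, 10 were tested in SKBR3 with 1 rise, 10 with siRNA in HCC1954 with no call, and 8 in the shRNA comparison with 4 rises and 2 falls. Over all symbols the shares that rose and fell were 12.3% and 21.0% in SKBR3, 2.31% and 0.966% with siRNA in HCC1954, and 36.3% and 39.2% with shRNA, with median log2 ratios of -0.08, -0.01 and 0.00. MAX stood at 34.2 and 44.0, 25.0 and 29.8, and 35.9 and 30.5 FPKM and was not called. MXD3, a repressor that competes for MAX, fell from 51.4 to 16.2 FPKM with shRNA, while MXI1, of the same family, rose from 6.96 to 26.9. MYCL, also of this network, rose there from 0.553 to 7.75 FPKM (q = 0.000121 in the authors' deposited table). Of 39 genes that MYC is known to activate, 14 fell and none rose of 36 tested in SKBR3 (median log2 ratio -0.24), and 1 rose and 1 fell of 36 with siRNA in HCC1954 (0.07). In the shRNA comparison, where MYC and MYCL were higher, 28 rose and 5 fell of 37 (0.76). ODC1, the first enzyme of polyamine synthesis, rose there from 39.3 to 269 FPKM, NPM1, a nucleolar chaperone, from 297 to 773, and NME1, a nucleotide kinase, from 159 to 516. E2F1 fell in all 3 comparisons, from 21.3 to 11.6, from 14.7 to 10.3 and from 27.5 to 17.7 FPKM. One called entry of the list, that of GART, fell with shRNA while its summed level was 65.4 and 68.0 FPKM.

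Of 8 genes that MYC is known to repress, 7 were tested in each table. In SKBR3 4 rose and with siRNA in HCC1954 3 rose, beside 12.3% and 2.31% of all symbols. With shRNA 3 rose and 4 fell, so all 7 were called, beside 36.3% and 39.2% of all symbols. GADD45A, a stress gene, rose in all 3 comparisons, from 18.5 to 43.5, from 59.3 to 126 and from 33.1 to 44.6 FPKM. CDKN1A, the cell cycle inhibitor p21, rose in both HCC1954 comparisons, from 15.7 to 45.7 and from 40.6 to 96.1 FPKM.

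**Figure D5:**
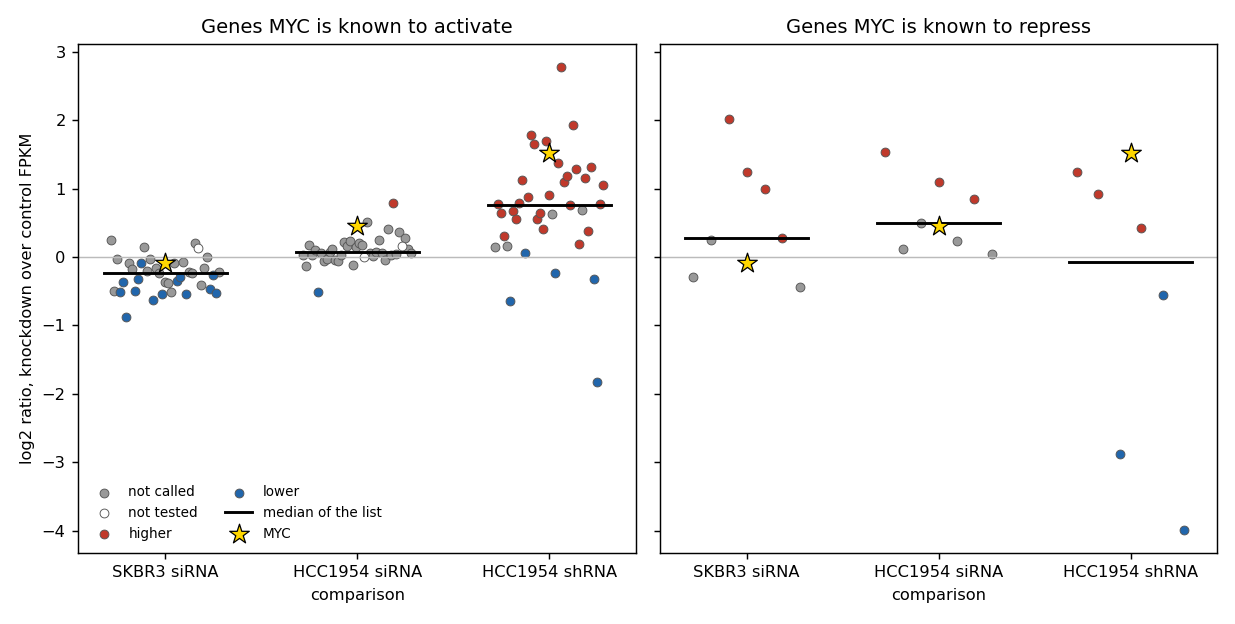
Log2 ratio of knockdown over control FPKM for genes that MYC is known to activate (left) or repress (right), at 1 FPKM or more in both groups, in the 3 comparisons. Red, blue, grey and open points are called higher, called lower, not called and not tested, the bar is the median of the list, and the star is MYC. The activated list has medians of -0.24, 0.07 and 0.76, with MYC at -0.09, 0.45 and 1.52.

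The E-box that MYC and MAX bind best, CACGTG, reads the same on both strands. It was searched in promoters of RefSeq (GRCh38.p14, 250 bases before to 50 after a gene's start) and found in 1576 of 18817 (8.38%), and in 15 of the 35 promoters of the activated genes that matched (42.9%). Windows of 26 bases are shown for 4 of these genes because each rose in the shRNA comparison beside MYC, with the E-box in capitals. HSPD1 and HSPE1, mitochondrial chaperone genes that face away from each other, share 1 site, read here on the minus and the plus strand of chr2:197500347-197500372. The windows of PPAT, of purine synthesis, and APEX1, a DNA repair enzyme, lie at chr4:56435782-56435807 (minus strand) and chr14:20455111-20455136 (plus strand).
HSPD1: gccctggcgaCACGTGaaaaaatcac
HSPE1: gtgattttttCACGTGtcgccagggc
PPAT: cggagatttcCACGTGcagcaaatac
APEX1: gcgtctccgtCACGTGgtgtcagaca
HSPD1 was at 134 FPKM in the shRNA control and 461 in the group labelled TFAP2C shRNA, HSPE1 at 42.9 and 135, PPAT at 11.6 and 28.3, and APEX1 at 156 and 268. With siRNA none of the 4 was called in either line. A match to these letters describes the sequence and does not show that MYC bound there. The list was chosen as known MYC targets, so its higher share of E-boxes is not a result of these data. Whether listed genes with the E-box rose more often than those without it was not tested.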

How the data were processed

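The 4 files are the authors' deposited comparison tables, 3 of them genome-wide. Per the file headers, they give 1 FPKM value per group, which pools 3 samples. The authors' test statistic (a score), p-value and q-value were taken over as deposited. The submitters' processing notes name Bowtie 0.12.2, Cuffdiff, hg19 and GRCh37, and no further step is given in the sources read. The siRNA table of HCC1954 was given its line by the name of the deposited file.

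RefSeq accessions were matched to symbols, and FPKM was summed over a symbol's accessions. Of 706 entries in the region 703 matched. Positions came from GENCODE 44 (GRCh37) for 223 members and from the tables for 41. A member is called where q is under 0.05 for its accession of highest mean level across the 6 groups. For 98 members with more than 1 accession, that call can rest on part of the summed level. In bulk samples, fewer cells of a kind and less RNA per cell cannot be told apart. Medians of ratios use members at 1 FPKM or more in both groups. Levels across tables were compared as log2(FPKM + 0.1), centred on all symbols. Differences between comparisons were tested by z, each standard error being the log2 ratio over the deposited statistic, with Benjamini-Hochberg adjustment over all symbols. The test was tried on simulated data whose noise was drawn from these same standard errors, so the trial cannot show whether they are right. Python 3.11.15, pandas 2.3.3, numpy 2.4.6 and scipy 1.17.1 were used.

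Members and gene lists were chosen with earlier results of these data known. Named are MYC, PVT1, the 5 measured genes on either side, the 8 largest called changes per direction and comparison, the 8 highest and lowest control ratios, members called in all 3 comparisons, the 5 largest z values per sign, the 5 highest control levels and up to 4 called genes per list. GSDMC and other genes below 1 FPKM in 1 group, the genes beside ERBB2 and the other genes named with a group were added after their values were seen. MicroRNA entries, whose FPKM is erratic at such short lengths, are not named. Alternatives included other choices of accession, threshold, filter and stretch.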

Additional observations from a re-analysis of the deposited data

Results flagged for a closer look

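Each difference in this paragraph passed a test of the difference between comparisons. The log2 ratio of FAM83A was higher in SKBR3 than in HCC1954 with siRNA by 1.80. In HCC1954 the siRNA ratio was higher than the shRNA ratio by 4.74 for EXT1, 3.25 for LRATD2, 3.06 for TMEM65, 2.25 for ATAD2 and 2.24 for UTP23, all before MYC. It was below the shRNA ratio for 4 genes beyond chr8:140000000, by a difference of -2.69 for ZNF251, -2.17 for SLC45A4, -1.21 for RECQL4 and -1.21 for TONSL. The siRNA and shRNA comparisons have separate controls, and the group labelled TFAP2C shRNA also had 20.8 FPKM of ERBB2 against 1525 in its control, whose part in these differences was not tested.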

How the results depend on the processing

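No paired analysis was possible because the files hold only pooled values per group, and for the same reason no sample could be left out. Of 88 recomputed values 65 stayed within the limit set for counting as the same, 0.1 on the log2 scale for median ratios. Counts within their limit still changed, such as from 47 to 36 rises and 39 to 31 falls with shRNA at 1.5-fold or more. Counts of called members went beyond the limit in 3 cases. In SKBR3 8 fell when a change of at least 1.5-fold was required. With siRNA in HCC1954 5 rose and 0 fell at q under 0.01. The median log2 ratio turned sign in SKBR3 to 0.01 after subtracting the median of all symbols and to 0.04 up to chr8:140000000. With siRNA in HCC1954 it was 0.00 with no filter and a pseudocount of 1. In the shRNA comparison it turned to -0.86 within 5 Mb of MYC and to -0.88 up to chr8:140000000, and was 0.56 beyond it, 0.00 with no filter and 0.05 at 5 FPKM or more. For control levels, SKBR3 over the HCC1954 siRNA control was 0.21 with no filter, 0.27 not centred and 0.82 within 5 Mb of MYC. The HCC1954 shRNA over siRNA control was 0.13 with no filter, 0.54 within 5 Mb, 0.53 up to chr8:140000000 and 0.07 beyond it. SKBR3 over the shRNA control was -0.01 not centred, 0.30 at 5 FPKM or more and 0.29 beyond chr8:140000000. With standard errors taken from the deposited p, 15 and 52 members differed between comparisons, instead of 1 and 17. MYC did not pass there either (z test, adjusted p = 0.509 and 0.0597 from the authors' deposited p). In the shRNA comparison MYC had the same q (0.000121) as many other called members, so its p may lie at the lower limit of the authors' test. Its standard error would then be too large, and the 0.0597 cannot decide whether the change of MYC differs. The cause of these shifts was not tested, other than the choice of stretch, filter or scale itself. Leaving out microRNAs and small nucleolar RNAs, an alternative chosen after seeing the data, moved no median beyond its limit. Depth per sample is unknown, so levels under 1 FPKM carry an error that cannot be given.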
